A study of Mus musculus with 11 samples.

Results

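A set of 10 genes that bind or move zinc and iron were followed in the pancreas and the epididymal adipose tissue of mice with obesity-related alcohol-induced acute pancreatitis (OA-AP): the metallothioneins Mt1 and Mt2, the zinc transporters Slc39a14 and Slc30a1, the ferritin subunits Fth1 and Ftl1, and the iron genes Tfrc, Slc40a1, Steap4 and Slc11a2. They were chosen by name with earlier results of these data known, so their shares and medians beside all genes are description only. All 10 were found among the 54532 genes of the pancreas counts and the 46078 genes of the adipose counts. All 10 also passed the filter on low counts in both tissues. The RNA sequencing data comprised 11 libraries, 5 of pancreas (2 control, 3 OA-AP) and 6 of epididymal adipose tissue (3 control, 3 OA-AP). All were male C57BL/6J mice (strain C57BL/6 in the labels), labelled as 16 weeks old. OA-AP mice were fed high-fat food over 12 weeks and then received 2 intraperitoneal injections of ethanol of 2 g/kg each, 1 h apart, and control mice ate chow and received saline. Diet, ethanol and pancreatitis therefore changed together, and their shares in any difference cannot be told apart. In whole tissue, a lower level from fewer cells of a type cannot be told apart from less RNA per cell.

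Zinc and iron are needed by many enzymes and are harmful when free, so cells hold them in binding proteins and adjust their transporters. Metallothioneins are small, cysteine-rich proteins that bind zinc and copper, and their genes are turned on by zinc through the factor MTF1, by glucocorticoids and by the cytokines of the acute-phase response. Ferritin, a shell of heavy and light chains, stores iron. Iron levels set the translation of ferritin and the stability of transferrin receptor mRNA through a stem-loop in the mRNA called the iron-responsive element, so that ferritin protein can change without its mRNA.

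The metallothionein genes lie next to each other on chromosome 8 of GRCm38, Mt1 (ENSMUSG00000031765) at chr8:94179082-94180327 and Mt2 (ENSMUSG00000031762) at chr8:94172664-94173568, both on the plus strand. Their coding sequences are shown because reads from such close relatives can be hard to assign. In the coding sequences below, from GENCODE M21 and without the stop codon, the capitals mark the bases at which the genes differ.
Mt1: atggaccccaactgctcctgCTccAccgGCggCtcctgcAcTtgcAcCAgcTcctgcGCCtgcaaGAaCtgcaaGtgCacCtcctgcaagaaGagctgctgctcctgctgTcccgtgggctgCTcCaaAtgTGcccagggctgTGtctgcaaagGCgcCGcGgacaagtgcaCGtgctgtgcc
Mt2: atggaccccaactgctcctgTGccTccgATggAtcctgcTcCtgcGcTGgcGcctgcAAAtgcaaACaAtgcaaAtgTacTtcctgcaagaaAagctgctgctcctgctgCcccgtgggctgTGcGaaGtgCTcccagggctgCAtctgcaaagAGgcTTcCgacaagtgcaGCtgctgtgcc
Of 183 bases, 145 (79.2%) were identical, and the longest identical stretch was 20 bases. The coding differences are thus spread over the whole length.

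The iron-responsive elements of the ferritin, ferroportin and transferrin receptor genes are shown because mRNA levels were measured here, while translation and mRNA stability were not. The pattern searched on the sense strand of GENCODE M21 coding transcripts was a bulged C, 5 bases, the loop CAGTGN, and 5 bases that pair with the first 5 (G with T allowed), 17 bases in all. The capitals mark the loop.
Fth1, 5′ UTR: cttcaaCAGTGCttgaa
Ftl1, 5′ UTR: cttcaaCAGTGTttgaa
Slc40a1, 5′ UTR: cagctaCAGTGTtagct
Tfrc, 3′ UTR: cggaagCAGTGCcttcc
Tfrc, 3′ UTR: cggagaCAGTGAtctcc
Tfrc, 3′ UTR: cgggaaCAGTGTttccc
Tfrc, 3′ UTR: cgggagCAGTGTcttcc
A match in the 5′ UTR was present in 31 of 21901 genes (0.142%) and a match in the 3′ UTR in 129 (0.589%). No transcript of Slc11a2 held these letters in this arrangement. The pattern allows no mismatch or extra base in the stem, so an element of another shape would be missed. Slc11a2 is therefore not shown to lack one. The Fth1 element was in 4 of 5 coding transcripts, the Ftl1 element in 1 of 2, the Slc40a1 element in 1 of 4 and each Tfrc element in 1 of 3.

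Library totals were 14188832 to 17238919 counts in the pancreas and 20825177 to 27928097 in adipose tissue. Values are given as CPM, counts scaled to the library's size, with TMM factors within a tissue. A gene was counted as changed when edgeR's quasi-likelihood test gave an adjusted p-value under 0.05 and the fold change was at least 1.5. The labelled tissues carried their own genes. Acinar markers took 73.1% and 74.9% of counts in the control pancreas and 57.6% to 60.4% in the OA-AP pancreas, and summed adipocyte markers stood at 65359 to 70630 CPM in control and 49643 to 63054 CPM in OA-AP adipose tissue, with 3 of 10 called lower and 1 higher. Adipose control 2 held 0.971% acinar counts, and the other adipose libraries 0.0019% or less. Scaling mattered in the pancreas. With library totals alone the median log2 fold change of all pancreas genes moved from 0.04 to 0.75, a shift of 0.71, against a shift of -0.15 in adipose tissue. Pancreas changes below are relative to the TMM scale.

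In adipose tissue, 5 of the 10 genes rose in OA-AP mice. Both metallothioneins, the importer Slc39a14, the metalloreductase Steap4 and the ferritin heavy chain Fth1 were the 5. By edgeR none of the 10 was called lower, against 3 lower at an unadjusted p under 0.05 and 1 lower by DESeq2. Over all 15839 genes tested, 25.1% were called, 12.1% as higher and 13% as lower. The median log2 fold change was 0.65 over the 10 genes and -0.01 over all genes. In the pancreas, 1 gene rose (Mt1) and 3 fell (Slc30a1, Ftl1 and Slc11a2), where 29.8% of 12884 genes were called, 16.2% higher and 13.5% lower. Here the median was -0.20 over the 10 genes and 0.04 over all. The share of the genes called in the pancreas, 4 of 10, was thus near that of all genes. With library totals alone the pancreas calls were a different 4, Mt1, Mt2, Slc39a14 and Steap4, all higher, beside 5843 genes called higher and 506 lower of all genes (2090 and 1744 with TMM). In adipose tissue that scaling gave 5 higher and 2 lower among the 10 genes. Of all adipose genes it called 1365 higher and 2885 lower (1915 and 2066 with TMM).

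**Figure D1:**
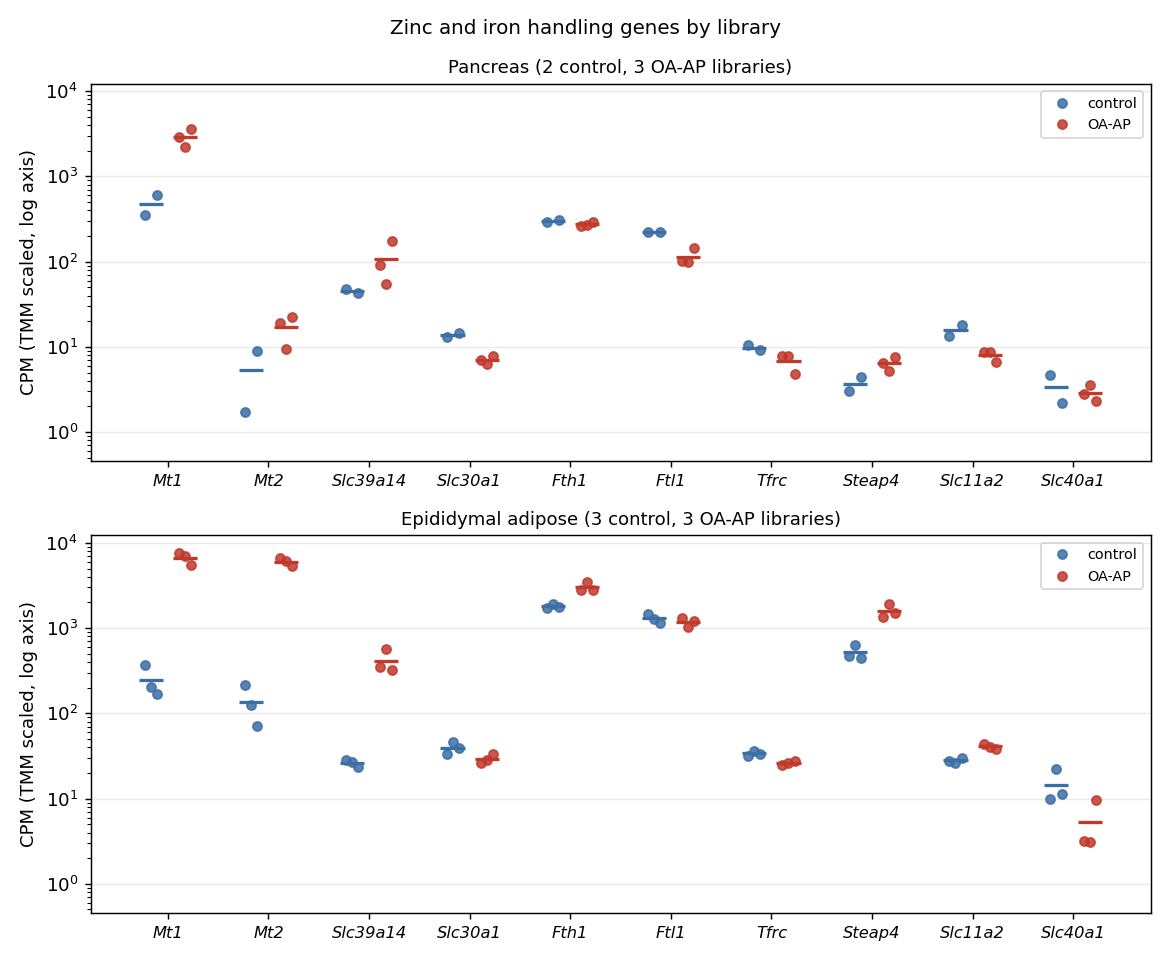
CPM of each gene (log axis) in every pancreas and adipose library, with control libraries in blue, OA-AP libraries in red and a line at each group mean. In adipose tissue the OA-AP libraries of Mt1, Mt2, Slc39a14 and Steap4 all lay above the controls. In the pancreas Mt1 stood apart most clearly, and Mt2 was far below Mt1.

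Mt1 rose in both tissues. In adipose tissue the control libraries had 369, 204 and 169 CPM and the OA-AP libraries 7709, 6941 and 5555 CPM. The lowest OA-AP library was far above the highest control. This was a log2 fold change of 4.77 ± 0.36 (SE), 27.3-fold, with an adjusted p of 0.000402 (edgeR). In the pancreas Mt1 stood at 349 and 601 CPM in the controls and at 2918, 2199 and 3625 CPM in OA-AP mice. Again the groups did not overlap, and the log2 fold change was 2.62 ± 0.31 (SE), 6.13-fold, with an adjusted p of 0.00102 (edgeR).

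Mt2 followed Mt1 closely in adipose tissue. It had 216, 124 and 71.9 CPM in the control libraries and 6589, 6084 and 5424 CPM in the OA-AP libraries. The libraries kept the same order as for Mt1 within each group. Its log2 fold change was 5.46 ± 0.44 (SE), 43.9-fold, with an adjusted p of 0.000537 (edgeR). Together the metallothioneins took 0.0253% to 0.0613% of all counts in control adipose tissue and 1.04% to 1.32% in OA-AP adipose tissue. By mean abundance among all adipose genes, Mt1 moved from rank 522 to rank 12 and Mt2 from rank 1184 to rank 14.

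In the pancreas Mt2 was low. It had 1.72 and 8.87 CPM in the controls, from 20 and 89 counts, and 19.0, 9.32 and 22.4 CPM in OA-AP mice. The controls differed from each other more than control 2 differed from OA-AP 2. A log2 fold change of 1.70 ± 0.72 (SE) did not pass (adjusted p = 0.127, edgeR). It was 0.94 (adjusted p = 0.291) without control 1, and passed without control 2 (3.30, adjusted p = 0.0382) and with library totals alone (2.44, adjusted p = 0.0419).

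The annotation bears on the pancreas value of Mt2. In GENCODE M21 an antisense gene, Gm45774, covers 432 of the 588 exonic bases of Mt2 (73.5%), and the pancreas counts hold a row for it. Gm45774 had 22 and 9 counts in the controls and 134, 81 and 288 in OA-AP mice, and the adipose counts used here held no row for it. Whether the tissues were counted on the same annotation is not known, which bears on any contrast of Mt2 between them. Whether reads falling on both genes were dropped, and whether strand was used, is not given in the sources used here. The pancreas level of Mt2 is therefore uncertain, and the part of this overlap in it was not tested. No other overlap reached as far, with 26.5% of Ftl1 under Gm10252 (at most 1 count), 8.92% of Slc30a1 under 1700034H15Rik (11 to 44 counts) and 6.33% of Slc11a2 under Gm5475 (at most 3 counts).

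The ratio of Mt1 to Mt2 counts within a library does not depend on scaling. In adipose tissue it was 1.71, 1.64 and 2.34 in the controls and 1.17, 1.14 and 1.02 in OA-AP mice, and all 3 OA-AP libraries lay below the controls. The means were 1.90 ± 0.389 and 1.11 ± 0.0772 (SD, n = 3 each), with a two-sided exact permutation p of 0.1, the smallest that 3 against 3 allows. In the pancreas the ratio was 203.5 and 67.8 in the controls and 154, 236 and 162 in OA-AP mice (exact permutation p = 0.4, with 0.1 the smallest possible). The pancreas ratios overlapped and carry the uncertainty of Mt2.

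Slc39a14 (ZIP14, ENSMUSG00000022094) brings zinc, manganese and iron not bound to transferrin into cells and is known as an acute-phase gene. It lies on the minus strand at chr14:70303469-70351425. Adipose libraries had 28.01, 27.0 and 23.7 CPM in the controls and 347, 565 and 321 CPM in OA-AP mice. The controls were tightly grouped and every OA-AP library was far above them. This gave a log2 fold change of 3.97 ± 0.25 (SE), 15.7-fold, with an adjusted p of 0.000253 (edgeR). Its abundance rank moved from 6363 to 286.

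In the pancreas Slc39a14 had 47.8 and 43.1 CPM in the controls and 91.0, 54.1 and 173 CPM in OA-AP mice. All OA-AP libraries were higher, but they differed more than 3 times among themselves. Its log2 fold change of 1.22 ± 0.49 (SE) did not pass (adjusted p = 0.111, edgeR). It was 0.63 (adjusted p = 0.0688) without OA-AP 3, and passed without OA-AP 2 (1.53, adjusted p = 0.00880) and with library totals alone (1.89, adjusted p = 0.0235). The same 3 libraries ranked in the same order for summed neutrophil markers, at 14.9, 3.60 and 104 CPM against 1.29 and 1.99 CPM in the controls. Up to 7 of those 12 marker genes were at 0 in a control and up to 5 in an OA-AP library, and 0 of the 7 tested were called by edgeR, 1 at an unadjusted p under 0.05 and 5 by DESeq2. This order was not particular to neutrophil markers. Summed adipocyte (163, 135 and 272 CPM), endothelial (50.9, 48.9 and 65.2 CPM), duct and lymphocyte markers kept it too. Acinar, macrophage, erythroid, mesothelial, fibroblast and islet sums did not. The part of cell content in the result was not tested.

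Slc30a1 (ZnT1), which exports zinc and is a target of MTF1, lies on the plus strand at chr1:191906767-191913247. It moved opposite to Mt1 in the pancreas. There it had 13.0 and 14.5 CPM in the controls and 6.98, 6.24 and 7.90 CPM in OA-AP mice. The log2 fold change was -0.96 ± 0.18 (SE), with an adjusted p of 0.00508 (edgeR), and was -0.25 (adjusted p = 0.330) with library totals alone. Leaving out control 2 also ended the call (-0.89, adjusted p = 0.0637). Adipose levels were 33.2, 46.1 and 39.7 CPM in the controls and 26.2, 28.2 and 33.5 CPM in OA-AP mice. These groups overlapped slightly, and the log2 fold change of -0.44 ± 0.15 (SE) did not pass (adjusted p = 0.0524, edgeR), but did with library totals alone (-0.59, adjusted p = 0.0214).

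Fth1 (ENSMUSG00000024661), the ferritin heavy chain that oxidizes iron for storage, lies at chr19:9982703-9985092 on the plus strand. Adipose tissue held 1703, 1936 and 1767 CPM in the controls and 2795, 3515 and 2802 CPM in OA-AP mice. The groups were well apart, and the log2 fold change was 0.75 ± 0.15 (SE), 1.69-fold, with an adjusted p of 0.00958 (edgeR). In the pancreas Fth1 had 295 and 310 CPM in the controls and 263, 271 and 292 CPM in OA-AP mice. The log2 fold change there was -0.13 ± 0.12 (SE), with an adjusted p of 0.432 (edgeR), and turned to 0.58 (adjusted p = 0.00412) with library totals alone, just under the 1.5-fold threshold.

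Ftl1 (ENSMUSG00000050708), the light chain that helps iron to settle in the shell, lies at chr7:45457944-45459884 on the minus strand. In the pancreas it had 224 and 222 CPM in the controls and 101, 97.99 and 143 CPM in OA-AP mice. The log2 fold change was -0.97 ± 0.18 (SE), with an adjusted p of 0.00494 (edgeR). The call ended with library totals alone (-0.27, adjusted p = 0.166), without control 1 (-0.96, adjusted p = 0.0556) and without control 2 (-0.97, adjusted p = 0.0580), where the fold change itself hardly moved. In adipose tissue Ftl1 had 1475, 1278 and 1151 CPM in the controls and 1311, 1036 and 1208 CPM in OA-AP mice. These groups overlapped, and the log2 fold change was -0.14 ± 0.16 (SE), with an adjusted p of 0.525 (edgeR).

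The ratio of heavy to light ferritin chain mRNA counts was higher in every OA-AP library than in any control of its tissue. The ratio of Fth1 to Ftl1 counts, which needs no scaling, was 1.32 and 1.39 in the control pancreas and 2.60, 2.76 and 2.05 in the OA-AP pancreas. In adipose tissue it was 1.15, 1.51 and 1.54 in the controls and 2.13, 3.39 and 2.32 in OA-AP mice. The means were 1.36 ± 0.0528 (SD, n = 2) and 2.47 ± 0.374 (SD, n = 3) in the pancreas and 1.40 ± 0.214 and 2.62 ± 0.681 (SD, n = 3 each) in adipose tissue. A two-sided exact permutation test gave p = 0.1 in each tissue, the smallest these group sizes allow. Ferritin has many processed copies in the genome. Ftl1-ps1 had 28 to 55 counts in the pancreas and 207 to 345 in adipose tissue, and Fth-ps2 had at most 7, so ferritin values are uncertain for reads shared with copies.

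**Figure D2:**
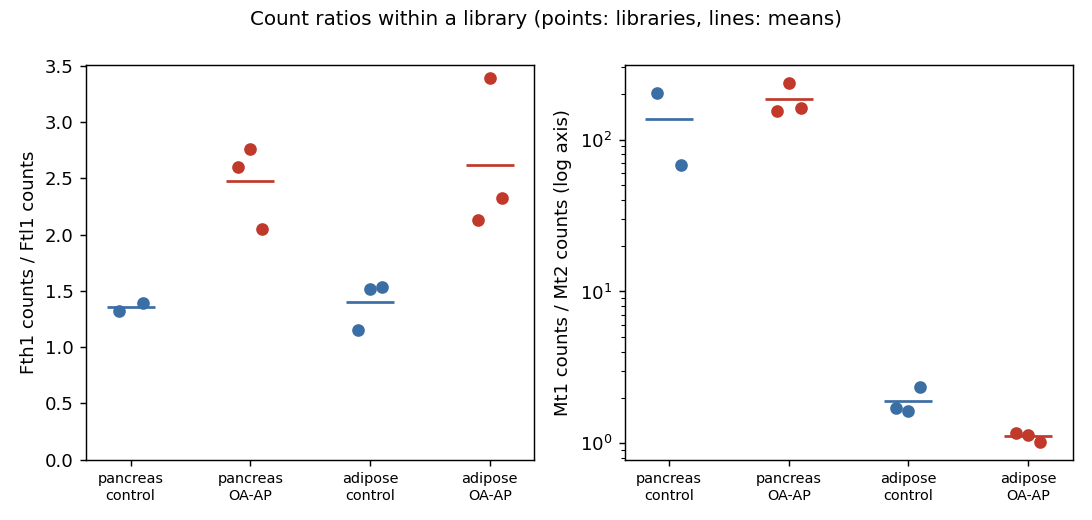
Ratio of Fth1 to Ftl1 counts (linear axis from 0) and of Mt1 to Mt2 counts (log axis) in each library, with lines at the group means. The Fth1 to Ftl1 ratio was 2.05 or more in every OA-AP library and 1.54 or less in every control. The Mt1 to Mt2 ratio lay between 1.02 and 2.34 in adipose tissue and at 67.8 or more in the pancreas.

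Steap4, a metalloreductase that turns ferric iron and cupric copper into the forms that transporters accept, is known in adipose tissue as an inflammation-responsive gene. It lies at chr5:7960457-7982213 on the plus strand. The adipose libraries had 476, 631 and 449 CPM in the controls and 1347, 1901 and 1516 CPM in OA-AP mice. The lowest OA-AP library was more than 2 times the highest control. Steap4 thus rose by a log2 fold change of 1.61 ± 0.20 (SE), 3.06-fold, with an adjusted p of 0.00160 (edgeR). In the pancreas Steap4 was scarce, at 3.003 and 4.39 CPM in the controls and 6.51, 5.21 and 7.58 CPM in OA-AP mice. The log2 fold change of 0.81 ± 0.28 (SE) did not pass (adjusted p = 0.0573, edgeR), though all OA-AP libraries were above the controls. It passed with library totals alone (1.52, adjusted p = 0.00147), with no filter on low counts (0.88, adjusted p = 0.0168), with a filter of 10 counts in every library (adjusted p = 0.0473) and without OA-AP 2 (0.93, adjusted p = 0.0371). It did not pass with DESeq2 (0.77, adjusted p = 0.0878), without OA-AP 1 (0.79, adjusted p = 0.142) or without OA-AP 3 (0.63, adjusted p = 0.0732). Without control 1 the log2 fold change was 0.56.

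Slc11a2 (DMT1), which carries ferrous iron into the cell and out of endosomes, was lower in the OA-AP pancreas and slightly higher in OA-AP adipose tissue. It lies at chr15:100387898-100425072 on the minus strand. In the pancreas it had 13.5 and 18.05 CPM in the controls and 8.82, 8.64 and 6.59 CPM in OA-AP mice, a log2 fold change of -0.97 ± 0.20 (SE) with an adjusted p of 0.00887 (edgeR). The pancreas call ended with library totals alone (-0.24, adjusted p = 0.424) and without control 2 (-0.75, adjusted p = 0.109). In adipose tissue Slc11a2 had 27.9, 26.5 and 30.1 CPM in the controls and 43.4, 40.8 and 38.5 CPM in OA-AP mice. The adipose libraries did not overlap and the adjusted p was 0.00475 (edgeR), but the log2 fold change of 0.54 ± 0.09 (SE) was under the 1.5-fold threshold, and passed it without control 3 (0.60, adjusted p = 0.0153).

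Tfrc, the transferrin receptor, takes up iron bound to transferrin and lies at chr16:32608920-32632794 on the plus strand. Its adipose levels were 31.7, 36.5 and 33.3 CPM in the controls and 24.7, 26.3 and 27.8 CPM in OA-AP mice. The groups did not overlap and the adjusted p was 0.0220 (edgeR), but the log2 fold change of -0.37 ± 0.10 (SE) was small and under the threshold. In the pancreas it had 10.5 and 9.07 CPM in the controls and 7.82, 7.89 and 4.86 CPM in OA-AP mice, a log2 fold change of -0.51 ± 0.25 (SE) that did not pass (adjusted p = 0.148, edgeR) and that was 0.21 with library totals alone.

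Slc40a1 (ferroportin), the iron exporter, is most abundant in macrophages that recycle iron and lies at chr1:45908068-45926523 on the minus strand. In adipose tissue it had 9.96, 22.5 and 11.4 CPM in the controls and 3.21, 3.08 and 9.60 CPM in OA-AP mice. OA-AP 3 lay close to the lowest control. The log2 fold change of -1.46 ± 0.53 (SE) did not pass (adjusted p = 0.0696, edgeR), and passed without OA-AP 3 (-2.21, adjusted p = 0.0143), with library totals alone (-1.62, adjusted p = 0.0487) and with DESeq2 (-1.46, adjusted p = 0.00885). It was smaller without control 2, which held 0.971% acinar counts (-1.01, adjusted p = 0.185). The same held without OA-AP 1 (-1.20, adjusted p = 0.150) and without OA-AP 2 (-1.18, adjusted p = 0.151). Summed macrophage markers were 1113 to 1439 CPM in the controls and 1175 to 1750 CPM in OA-AP mice, overlapping. The sum joins markers that moved both ways, with 3 of 12 called higher and 2 lower. Their part in the Slc40a1 result was not tested. In the pancreas the gene had 4.63 and 2.19 CPM in the controls and 2.78, 3.55 and 2.30 CPM in OA-AP mice, which overlapped (log2 fold change -0.26 ± 0.38 (SE), adjusted p = 0.634, edgeR, and 0.43 with library totals alone).

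**Figure D3:**
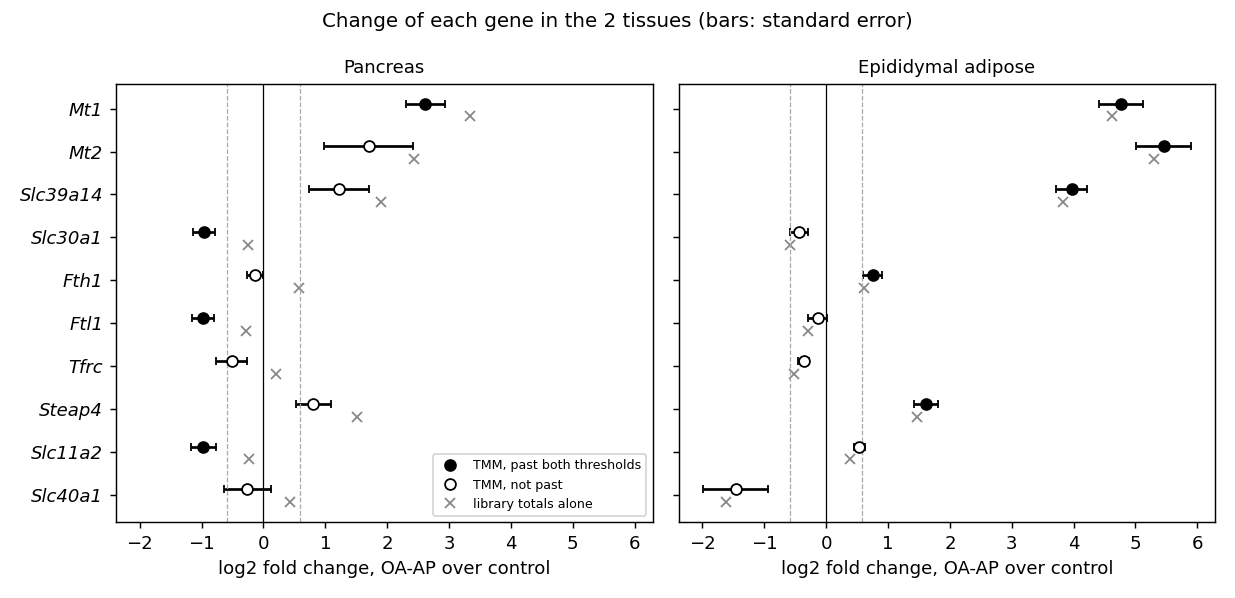
Log2 fold change of each gene, OA-AP over control, in the pancreas and in adipose tissue. Circles are the TMM fit with standard errors (filled where past both thresholds), crosses the fit with library totals alone, and dashed lines mark 1.5-fold. In the pancreas every cross lies to the right of its circle, and Fth1, Tfrc and Slc40a1 change sign. In adipose tissue Mt1, Mt2 and Slc39a14 lie between 3.97 and 5.46.

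The change differed between the tissues for 6 of the 10 genes, by edgeR's test of the tissue by condition term over all 11 libraries (21.3% of 17046 genes called at an adjusted p under 0.05). The adipose change minus the pancreas change was 3.75 ± 0.82 for Mt2 (adjusted p = 0.00913), 2.74 ± 0.55 for Slc39a14 (adjusted p = 0.00591) and 2.14 ± 0.57 for Mt1 (adjusted p = 0.0198), on the log2 scale with SE. It was 1.499 ± 0.21 for Slc11a2 (adjusted p = 0.000645), 0.88 ± 0.25 for Fth1 (adjusted p = 0.0251) and 0.82 ± 0.26 for Ftl1 (adjusted p = 0.04003). With library totals alone only Mt2, Slc39a14 and Mt1 passed, at 2.87, 1.94 and 1.28, and the Ftl1 difference was -0.0092. With a replicate block that treats same-numbered libraries of a condition as the same animal, only Slc11a2 passed (1.55, adjusted p = 0.00471, edgeR). In that fit Slc39a14 (2.77, adjusted p = 0.0752), Mt2 (3.31, adjusted p = 0.0904) and Mt1 (1.96, adjusted p = 0.125) did not pass. Without pancreas control 2 the calls of Mt1 (1.71, adjusted p = 0.109), Mt2 (2.16, adjusted p = 0.102), Fth1 (0.86, adjusted p = 0.104) and Ftl1 (0.84, adjusted p = 0.110) were lost. Over the 11 libraries left out in turn, the Fth1 call was lost 6 times and the Ftl1 call 8 times, with differences of 0.70 to 0.93 and 0.69 to 1.02, while those of Slc39a14 and Slc11a2 were kept. The Mt2 difference also rests on the uncertain pancreas value. The differences of Steap4 (0.80, adjusted p = 0.111), Slc30a1 (0.52, adjusted p = 0.141), Slc40a1 (-1.21, adjusted p = 0.303) and Tfrc (0.14, adjusted p = 0.768) did not pass (edgeR), though that of Slc40a1 did without adipose OA-AP 3 (-2.02, adjusted p = 0.0425).

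To compare levels between genes, CPM was divided by the exonic length in kilobases that the pancreas counts list. In control adipose tissue Fth1 led at 2081 ± 139 CPM per kb, followed by Ftl1 at 971 ± 122 (SD, n = 3). Mt2 (234 ± 124), Mt1 (198 ± 85.7) and Steap4 (164 ± 31.0) came next and lay within their spread of each other. Slc30a1 (7.56), Tfrc (5.47), Slc11a2 (4.44), Slc39a14 (2.49) and Slc40a1 (1.62) were lowest. In OA-AP adipose tissue Mt2 (10259 ± 993) and Mt1 (5405 ± 876) stood above Fth1 (3508 ± 478), and Slc39a14 reached 39.0 ± 12.7. The Mt1 length of 1246 bases is its full annotated span, which lowers its value per kb.

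In the control pancreas Mt1 (381 ± 143 CPM per kb) and Fth1 (349 ± 12.2) did not differ beyond their spread (SD, n = 2), and Ftl1 followed at 166. In the OA-AP pancreas Mt1 led at 2339 ± 572, ahead of Fth1 at 318 ± 17.6 and Ftl1 at 85 ± 18.6 (SD, n = 3). All other genes stayed below 30 CPM per kb in both groups, with Mt2 at 9.01 and 28.7.

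The other zinc genes comprised 26 transporters, metallothioneins and MTF1. In adipose tissue 7 of the 19 tested rose and the other 12 did not pass, beside 12.1% of all genes called higher, with a median log2 fold change of 0.51 against -0.01 over all genes. The ones with the smallest p were the plasma membrane importers Slc39a10, which went from 30.0 to 99.3 CPM (log2 fold change 1.73 ± 0.12), Slc39a6, from 14.01 to 26.5 CPM (0.92 ± 0.09), and Slc39a1, from 131 to 262 CPM (1.00 ± 0.13), and the zinc-sensing factor Mtf1, from 17.8 to 27.5 CPM (0.63 ± 0.10). Their adjusted p-values were 0.000269, 0.000790, 0.00199 and 0.00355 in that order (edgeR). Mtf1 was just past the 1.5-fold threshold.

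In the pancreas 5 of 19 zinc genes rose and 4 fell, beside 16.2% and 13.5% of all genes, with a median of -0.08 against 0.04. With library totals alone 10 were called higher and 2 lower, beside 5843 and 506 of all genes. Slc39a8 (ZIP8), the closest relative of Slc39a14, rose from 11.5 ± 0.538 to 128 ± 28.2 CPM (log2 fold change 3.47 ± 0.22, adjusted p = 8.51e-05, edgeR). Slc39a10 rose from 1.30 to 17.6 CPM (3.76 ± 0.26, adjusted p = 0.000101). Slc39a11 fell from 56.6 to 17.99 CPM (-1.65 ± 0.15, adjusted p = 0.000265), and Slc39a5, an importer of the basolateral membrane of acinar cells, fell from 340 to 153 CPM (-1.15 ± 0.13, adjusted p = 0.000724). Mtf1 was at 2.96 and 5.34 CPM (0.86 ± 0.30, adjusted p = 0.0596). Slc39a10 and Slc39a8 rose more in the pancreas than in adipose tissue (adipose minus pancreas -2.05 and -1.803 on the log2 scale, adjusted p = 0.000503 and 0.0455, edgeR), the reverse of Slc39a14. Slc39a3 differed in the same direction (-0.91, adjusted p = 0.00244). Other zinc genes differed the other way, beside 21.3% of all genes called. These were Slc39a11 (1.87, adjusted p = 4.6e-05), Slc39a7 (1.54), Slc39a13 (1.17), Slc30a6 (1.08) and Slc30a5 (0.73). As most acinar markers fell in the OA-AP pancreas (19 of 28 called lower and 1 higher), the part of acinar content in the pancreas falls was not tested.

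The other iron genes comprised 42 names. In adipose tissue 10 of 37 tested rose and 8 fell, beside 12.1% and 13% of all genes, with a median of 0.24 against -0.01. The reductases Steap1 and Steap2 rose with their relative Steap4, from 0.488 to 12.8 CPM (log2 fold change 4.68 ± 0.30, adjusted p = 0.000252, edgeR) and from 19.9 to 87.2 CPM (2.13 ± 0.15, adjusted p = 0.000299). Hmox1, the enzyme that frees iron from heme, rose from 44.2 ± 5.75 to 278 ± 74.3 CPM (2.65 ± 0.21, adjusted p = 0.000451). Bmp6, a signal of iron stores, fell from 35.7 to 17.7 CPM (-1.01 ± 0.11, adjusted p = 0.00125). Lcn2, which binds the iron carriers of bacteria, went from 9.53 ± 2.05 to 957 ± 829 CPM (6.65 ± 0.73, adjusted p = 0.00148). Transferrin, Trf, was at 321 and 333 CPM (adjusted p = 0.892). Beside these, summed neutrophil markers went from 10.1 to 16.3 CPM in the controls to 180 to 199 CPM in OA-AP adipose tissue. Of the 7 tested, 6 were called higher and 1 lower, with at most 1 of 12 genes at 0. Summed erythroid markers were 406 to 559 and 545 to 1008 CPM, with 2 of 6 called higher. Summed fibroblast markers were 2740 to 3542 and 1646 to 2003 CPM (3 of 4 called lower) and summed lymphocyte markers 7.49 to 40.8 and 2.07 to 3.43 CPM (5 of 5 tested called lower). Their part in the adipose results was not tested.

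In the pancreas 6 of 32 iron genes rose and 4 fell, beside 16.2% and 13.5% of all genes, with a median of 0.06 against 0.04. With library totals alone 17 were called higher and 1 lower, beside 5843 and 506 of all genes. Ncoa4, the receptor that sends ferritin to autophagy, rose from 10.1 to 24.0 CPM (log2 fold change 1.24 ± 0.15, adjusted p = 0.000804, edgeR), and the ferroxidase Cp rose from 11.3 to 31.2 CPM (1.47 ± 0.20, adjusted p = 0.00129). Lcn2 rose from 0.849 ± 0.351 to 195 ± 103 CPM (7.86 ± 0.74, adjusted p = 0.00126) while Slc22a17, its receptor, fell from 22.2 to 3.28 CPM (-2.77 ± 0.37, adjusted p = 0.00198). Hmox1 rose from 1.35 to 11.7 ± 7.95 CPM (3.12 ± 0.76, adjusted p = 0.0249). Hamp, the hepcidin gene whose peptide closes ferroportin, had 0 counts in both controls and 11, 16 and 6 in OA-AP mice, at least 4.28-fold higher than 3 counts over the control group would give (adjusted p = 0.0266). Its relative Hamp2, named after its values were seen, was more abundant and fell from 20.7 ± 1.02 to 7.80 ± 3.63 CPM (-1.41 ± 0.39, adjusted p = 0.0327). In adipose tissue Hamp had at most 2 counts. Trf in the pancreas was at 0.385 and 0.548 CPM (adjusted p = 0.638).

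The change of Ncoa4 also differed between tissues. In adipose tissue it was at 197 and 149 CPM (log2 fold change -0.40 ± 0.24, adjusted p = 0.224), a difference from the pancreas of -1.66 ± 0.31 (adjusted p = 0.00305, edgeR). Ncoa4 was not alone in the iron list, beside 21.3% of all genes called. Slc22a17 (2.24, adjusted p = 0.00231), Slc25a37 (2.03, adjusted p = 0.00418) and Fbxl5 (1.08, adjusted p = 0.00447) passed too (edgeR). So did Fech (0.81, adjusted p = 0.00513) and Aco1 (-1.08, adjusted p = 0.00402). The differences of Hmox1 (-0.48, adjusted p = 0.736), Lcn2 (-1.22, adjusted p = 0.526) and Mtf1 (-0.24, adjusted p = 0.589) did not pass.

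**Figure D4:**
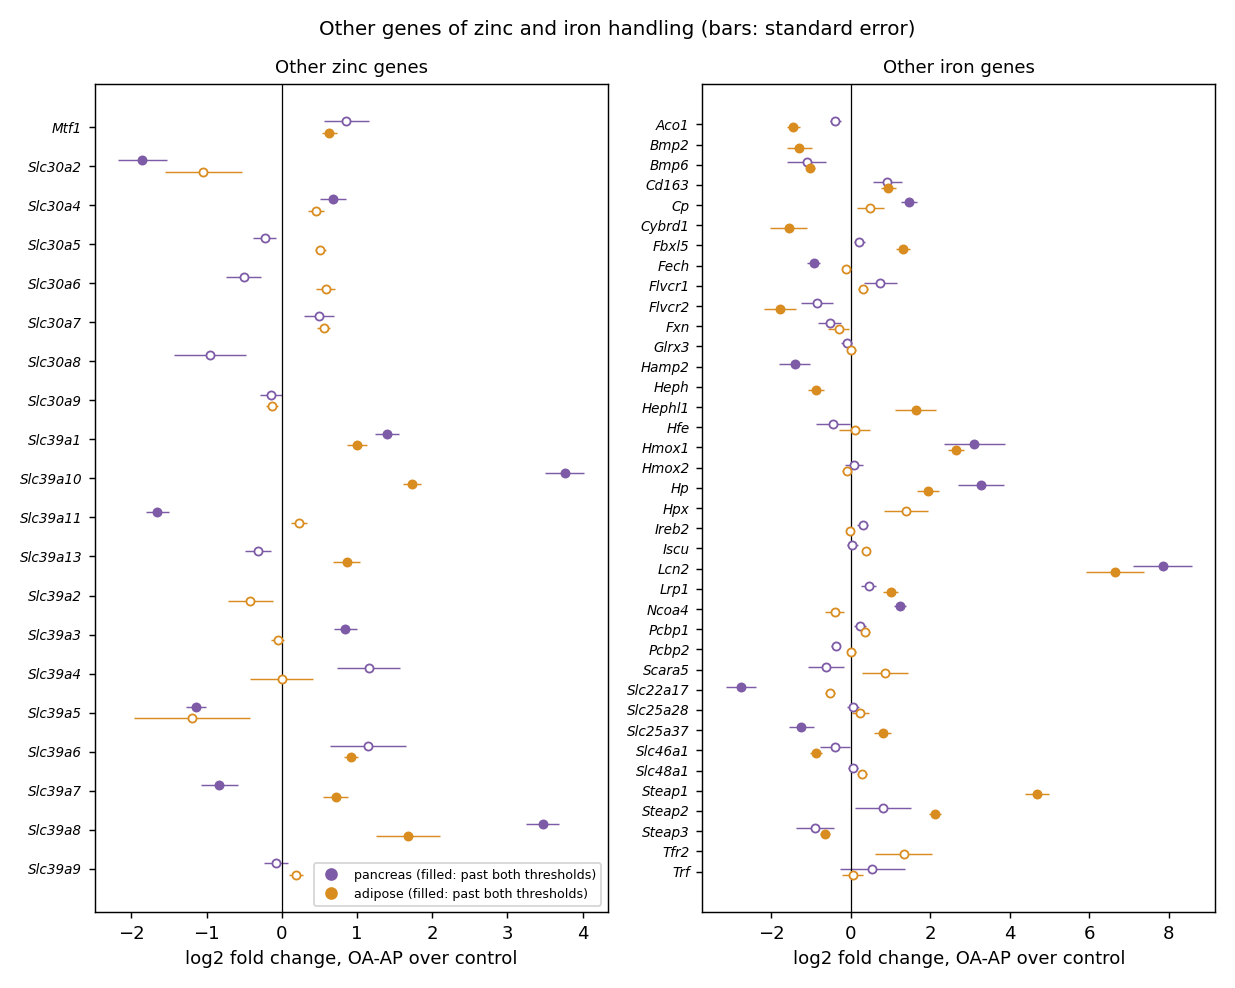
Log2 fold change with standard error of the other zinc genes and iron genes that were tested, OA-AP over control, with the pancreas in purple, adipose tissue in orange and filled circles where both thresholds were passed. Hamp is left out, as it had 0 counts in the control pancreas. Slc39a8 and Slc39a10 lie farther to the right in the pancreas, Steap1 and Steap2 are high in adipose tissue, and Lcn2 is the highest iron gene in both.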

How the data were processed

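The authors trimmed adapters with Trim Galore 0.6.6, filtered reads with fastp 0.20.1, mapped them to GRCm38 by STAR, and assigned them to genes with featureCounts 2.0.1. The authors deposited raw gene counts for every library, a table for each tissue. The annotation release, the strand setting and the treatment of reads on 2 genes are not given in the sources used here, and the tables list different numbers of genes (45260 shared). Low-count genes were removed with filterByExpr, libraries were scaled with TMM, and the tissues were fitted separately with edgeR 4.0.16 (quasi-likelihood, robust, R 4.3.3). The Benjamini-Hochberg adjustment ran over all genes tested in a tissue, and the tissue by condition test used the genes shared by both tables. Changed genes passed 0.05 on the adjusted p-value and 1.5 on the fold change; the tissue by condition test used only the former. The SE of a log2 fold change was its size over the square root of F. Floors used 3 counts and cover counting error only.

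The members and gene lists were chosen with earlier results of these data known. The text names all 10 members; up to 4 called genes with the smallest p and a mean of at least 1 CPM in each of the zinc and iron lists per tissue; and Hamp, Hmox1, Trf, Lcn2 and Mtf1 in any case. Gm45774, Hamp2 and the tissue differences of other listed genes were added after the values were seen. The labels do not say that every library is a separate animal, so p-values measure the spread between these libraries. Deviations of same-numbered libraries had correlations of -0.163 to 0.0562 for control with OA-AP within a tissue, and -0.0115 to 0.09 for pancreas with adipose tissue. Numbers were therefore not used to pair libraries. Such correlations cannot exclude that a pancreas and an adipose library came from the same mouse. Alternatives were DESeq2 1.42.0, library totals, TMM without acinar genes, other filters, a 2-fold threshold, a replicate block and leaving out each library.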

Additional observations from a re-analysis of the deposited data

Results flagged for a closer look

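For 6 genes the test of the tissue by condition term found that the change in adipose tissue differed from that in the pancreas. On the log2 scale the adipose change minus the pancreas change was 2.14 for Mt1, 3.75 for Mt2, 2.74 for Slc39a14, 0.88 for Fth1, 0.82 for Ftl1 and 1.499 for Slc11a2. Mt1, Mt2 and Slc39a14 were higher in OA-AP mice in both tissues and more so in adipose tissue, with the Mt2 and Slc39a14 changes of the pancreas not past the threshold. Ftl1 was lower in the pancreas and within the spread in adipose tissue, and Slc11a2 was lower in the pancreas and higher, under 1.5-fold, in adipose tissue. The Fth1, Ftl1 and Slc11a2 differences were lost with library totals alone, and with a replicate block only that of Slc11a2 passed.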

How the results depend on the processing

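The 5 calls in adipose tissue stood at 4 to 7 over all alternatives. In the pancreas the 4 calls became 1 at a 2-fold threshold and 2 to 6 when each library was left out (2 without control 2, 6 without OA-AP 2), and the calls in the iron list rose from 10 to 18 with library totals alone. Over all pancreas genes that scaling called 5843 higher and 506 lower, against 2090 and 1744 with TMM. The 6 tissue differences became 3 with library totals alone, where that of Ftl1 turned to -0.0092, 1 with a replicate block, and 2 to 6 when each library was left out. The replicate block, whose numbers are not known to pair the libraries, gave 5 calls in each tissue. Without adipose control 2, an alternative chosen after seeing the data, 7 zinc and 16 iron genes were called in adipose tissue, against 7 and 18. The OA-AP over control quotient of the Mt1 to Mt2 ratio ranged from 0.904 to 2.71 in the pancreas and from 0.549 to 0.665 in adipose tissue over the libraries left out, and that of Fth1 to Ftl1 from 1.72 to 1.98 and from 1.59 to 2.04. The cause of these changes was not tested beyond the scaling shift of 0.71 in the pancreas. Scaling, the 2 pancreas controls and the low counts of Mt2 there limit the pancreas results.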
